A study of Mus musculus with 8 samples.

Results

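On 8 single-colour mouse expression arrays, 1 for each group, 10 genes that encode hypothalamic neuropeptides were read. The genes were Trh, Gal, Sst, Pomc, Avp, Npy, Crh, Oxt, Ghrh and Cartpt, taken as the non-control probes that carry these names, which gave 10 of 55681 probes and 10 of 34763 genes. Each gene had 1 probe, and the probe of Sst was spotted repeatedly on every array. The set was chosen by function, but selected on these data too, with the high Trh signals on activin RAX-negative and on the Wi control already known, so all levels are a description and carry no test.

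The study sorted differentiating mouse embryonic stem cells by a GFP reporter at Rax, the homeobox gene that marks the forming retina and hypothalamus, and set them beside tissue of the embryo. The sorted groups were activin RAX-positive, activin RAX-negative, SAG RAX-positive and SAG RAX-negative, all from K/l-EB5, a male line of 129/Ola background with GFP knocked in at Rax. These cells were neuralized, received the Wnt inhibitor IWR-1-endo (Wi) at 5 µM on day 3, and 12 h later either Activin A, a TGF-beta family ligand, at 10 ng/ml or SAG, an agonist of Sonic hedgehog signalling, at 100 nM. They were sorted at 10 days in vitro. The Wi control came from E14Tg2A, another male 129/Ola line, at 10 days in vitro with the inhibitor alone, and its labels name no sort. Every culture, the control included, therefore carried the Wnt inhibitor. Diencephalon/hypothalamus, cortex and eye were taken at E12.5 from 3 Sv129s6 embryos of mixed sex. Because RNA from 3 experiment sets was combined ahead of labelling, no spread between cultures was measured. The Wi control was alone on slide 2, so the inhibitor-only condition, the cell line and the slide cannot be told apart. RAX-positive arrays all lay in slide column 1 and RAX-negative arrays in column 2, with both activin arrays at position 1 and both SAG arrays at position 2. The gate therefore cannot be told apart from the slide column, nor the added factor from the slide position. Diencephalon/hypothalamus lay in column 1 and cortex in column 2, both at position 3, and eye in column 1 at position 4. Tissue likewise cannot be told apart from column or position.

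Neuropeptides are cut from larger precursors in the secretory pathway and stored in dense-core granules until the neuron fires. In the hypothalamus they form small, distinct neuron groups: some peptides reach the anterior pituitary through the portal blood and release or hold back its hormones, some leave nerve endings in the posterior pituitary, and others act within the brain on feeding and energy use. Peptide genes of different groups switch on at different times, so at mid-gestation some are already active and others are not.

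The probe sequences for 4 genes are shown to place what the arrays read. The Trh and Ghrh probes lie at the 3′ end of their transcripts, and the last 30 bases of each are given with the polyadenylation signal AATAAA in capitals. The Npy and Cartpt probes lie in the precursor coding sequence, and the capitals mark the codons of a cleavage signal next to the mature peptide. Positions are those of the files on the mm9 build. The Trh probe maps to chr6:92192061-92192120 on the minus strand and the Ghrh probe to chr2:157155249-157155308 on the minus strand. The Npy probe maps to chr6:49773743-49777505 on the plus strand and the Cartpt probe to chr13:100668967-100669956 on the minus strand, both spans being longer than the 60 bases of a probe.
Trh: tgttaatctcaatgacAATAAAatatatcc
Ghrh: cttttccgtcctctgtaaatacAATAAAac
Npy: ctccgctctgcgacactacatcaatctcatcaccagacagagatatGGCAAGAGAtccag
Cartpt: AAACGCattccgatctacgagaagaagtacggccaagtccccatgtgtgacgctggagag

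The promoters of Sst and Cartpt are shown because they hold the same motif. Both genes were brightest on the diencephalon/hypothalamus array, then on SAG RAX-negative and then on the Wi control, as was Ghrh, whose promoter window does not hold it. Each run is the 250 bases before the RefSeq start on GRCm38.p6, with the cAMP response element TGACGTCA in capitals. The Sst run is chr16:23890845-23891094 and the Cartpt run is chr13:99900684-99900933, both on the minus strand. The element begins 48 bases before the start of Sst and 112 bases before that of Cartpt.
Sst: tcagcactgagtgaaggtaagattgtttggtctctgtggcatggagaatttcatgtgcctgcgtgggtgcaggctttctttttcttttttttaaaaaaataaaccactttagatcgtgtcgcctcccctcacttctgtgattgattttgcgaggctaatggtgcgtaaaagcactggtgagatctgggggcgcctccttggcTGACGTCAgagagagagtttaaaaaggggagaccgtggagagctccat
Cartpt: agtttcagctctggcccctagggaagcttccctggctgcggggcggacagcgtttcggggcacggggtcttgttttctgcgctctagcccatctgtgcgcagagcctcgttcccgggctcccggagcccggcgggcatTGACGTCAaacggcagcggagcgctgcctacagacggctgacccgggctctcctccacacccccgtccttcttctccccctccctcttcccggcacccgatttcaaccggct
RefSeq promoter entries existed for 9 of the 10 genes, and Crh is named only. On either strand, TGACGTCA was found for 2 of these genes and in 508 of 32851 promoters (1.55%). The octamer ATGCAAAT was found for Ghrh (1.6% of all promoters), TATAAA for Ghrh and Pomc (12.4%) and GTCTAGAC, a SMAD-binding sequence, for 0 of the 9 genes (0.167%). The 4 motifs do not overlap one another in letters, and a match describes the window only.

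Signals are given as processed fluorescence of the scanner software, and differences and folds are those of that signal, mostly on the log2 scale, after division by the array's 75th percentile. The scanner software's own error was about 0.15 log2 (the median over members and arrays) for 1 signal. It covers the measurement of a spot and not the spread between cultures. A gene was called higher or lower in a pair of arrays when the brighter array was well above background and the difference was at least 1 on the log2 scale, which is 2-fold. A dimmer array that was not well above background was raised, where needed, to the lowest signal that passed that call on it, and the fold is then a lower bound. Shares of all genes called are given beside the counts for scale, since the genes were chosen with their levels on these arrays known. In pooled RNA, fewer cells of a type and less RNA per cell cannot be told apart.

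The spots that passed the call of well above background made up 59.5% to 79.3% of an array. Of 1364 genes for olfactory and vomeronasal receptors, 44.2% passed on activin RAX-positive and 11.7% to 24.4% on the other arrays, and the part of this in dim signals on activin RAX-positive was not tested. Rax itself had scaled log2 levels of 5.68 on activin RAX-positive and 2.51 on activin RAX-negative, and of 5.67 on SAG RAX-positive and 3.28 on SAG RAX-negative, so its transcript followed the gate. On their own tissue 12 of 12 hypothalamus and diencephalon markers, 8 of 8 cortex markers and 10 of 10 eye markers were well above background, but detection alone did not separate the tissues, since diencephalon/hypothalamus also passed 8 of 8 cortex and 10 of 10 eye markers. Summed scaled signals of the cortex list were 164 on cortex, 9.23 on diencephalon/hypothalamus and 5.25 on eye. Those of the eye list were 635.1 on eye, 5.32 on diencephalon/hypothalamus and 19.4 on cortex. The hypothalamus and diencephalon list, which includes Rax and Six6 of the eye, summed to 48.2 on diencephalon/hypothalamus, 3.20 on cortex and 46.5 on eye.

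Of the 10 neuropeptide genes, 9 were well above background on activin RAX-positive, 8 on activin RAX-negative, 8 on SAG RAX-positive, 8 on SAG RAX-negative, 9 on the Wi control, 9 on diencephalon/hypothalamus, 8 on cortex and 10 on eye. The shares of all genes well above background on the same arrays were 82.5%, 65.2%, 74.0%, 70.5%, 72.3%, 76.6%, 67.7% and 78.5%, in that order. The 7 genes Gal, Sst, Pomc, Npy, Oxt, Ghrh and Cartpt passed on all 8 arrays. Trh missed on cortex alone, and Avp and Crh were well above background on 3 arrays each.

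**Figure D1:**
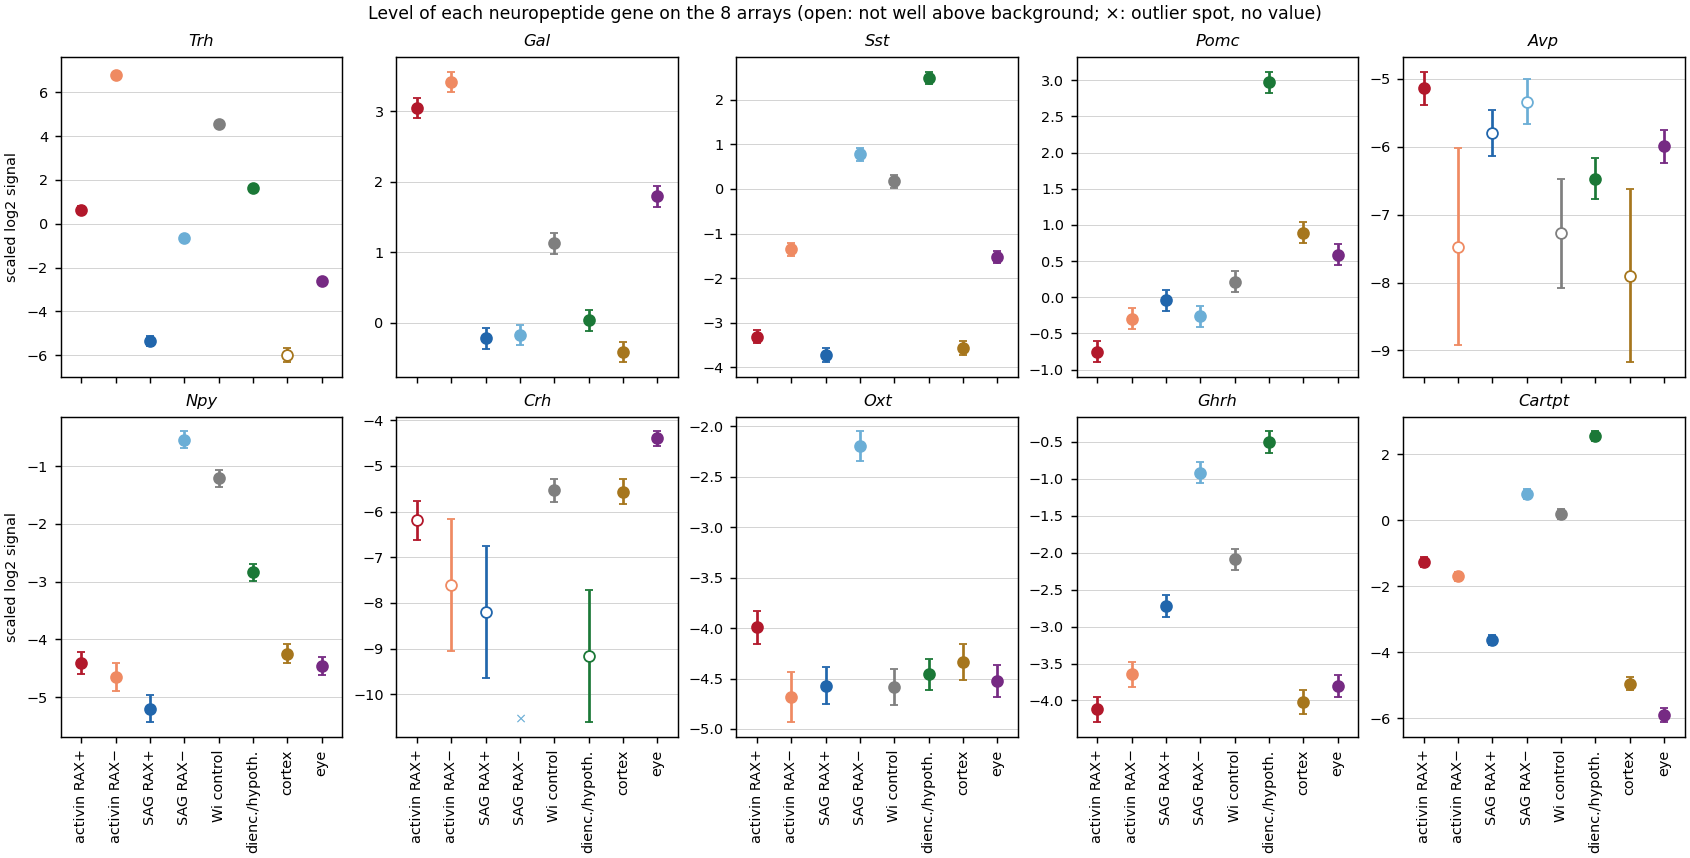
Scaled log2 signal (y axis, log2 units relative to the array's 75th percentile) of each of the 10 neuropeptide genes on the 8 arrays (x axis), 1 point for each array, with bars for the scanner software's error and open points where the probe was not well above background. Trh and Gal peak on activin RAX-negative, Sst, Pomc, Ghrh and Cartpt on diencephalon/hypothalamus, and Npy and Oxt on SAG RAX-negative, and the y axes differ between panels.

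Among the hypophysiotropic hormones, Trh, the thyrotropin-releasing hormone precursor, had by far the widest range. Its signal was 1438 on activin RAX-positive, 97071 on activin RAX-negative, 14.7 on SAG RAX-positive, 540.2 on SAG RAX-negative, 15388 on the Wi control, 3674 on diencephalon/hypothalamus, 18.5 on cortex and 164 on eye. The activin RAX-negative and Wi control arrays were above diencephalon/hypothalamus, while SAG RAX-positive and cortex lay near background. The lowest array, cortex, where the probe was not well above background, and the highest were at least 12.80 apart on the log2 scale, and activin RAX-negative exceeded the Wi control, the next array, 4.80-fold. Among the tissues, diencephalon/hypothalamus was the brightest array for Trh. Nkx2-1, a homeobox gene of the ventral hypothalamus, had a scaled log2 level of -0.44 on activin RAX-negative, was not well above background on the Wi control, and was at 3.29 on diencephalon/hypothalamus. Other markers of its list differed by less or by more. Foxb1 was at 1.97, 0.71 and 2.44 on these arrays, in that order, and Hmx3 at -3.61, -5.43 and 2.18. Of the 12 hypothalamus and diencephalon markers, 10 were well above background on activin RAX-negative, 10 on the Wi control and 12 on diencephalon/hypothalamus. Their summed scaled signals were 15.6, 5.39 and 48.2.

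The 2 brightest arrays for Trh also had the highest sums of markers of other early cell types. All 12 markers of pluripotent cells and epiblast were well above background on activin RAX-negative and on the Wi control, with summed scaled signals of 165.9 and 183.6, and the other 6 arrays held sums of 2.07 to 14.1. Pou5f1, a core pluripotency factor, had scaled log2 levels of 4.07 on activin RAX-negative and 1.98 on the Wi control, and was not well above background on diencephalon/hypothalamus or cortex. The order was not that of Trh throughout: diencephalon/hypothalamus, next after those arrays for Trh, had a sum of 2.87, and SAG RAX-positive, near background for Trh, one of 7.64. Markers of mesoderm and endoderm had summed signals of 39.9 on activin RAX-negative and 20.0 on the Wi control, with 9 of 12 well above background on each, and sums of 3.54 to 13.8 on the other arrays. The part of such cells in the Trh signal was not tested.

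Sst encodes somatostatin, which holds back growth hormone release. Its signal was 92.7 on activin RAX-positive, 341.1 on activin RAX-negative, 45.1 on SAG RAX-positive, 1472 on SAG RAX-negative, 749.5 on the Wi control, 6702 on diencephalon/hypothalamus, 100.4 on cortex and 354 on eye. Both RAX-positive arrays and cortex were dim, and each RAX-negative array was brighter than the RAX-positive array of its treatment. Diencephalon/hypothalamus was 3.28-fold above SAG RAX-negative, the next array. In the order of levels, activin RAX-negative and eye were 0.17 log2 apart and SAG RAX-positive, cortex and activin RAX-positive formed a low group, each neighbour within 2 scanner errors of the next.

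**Figure D2:**
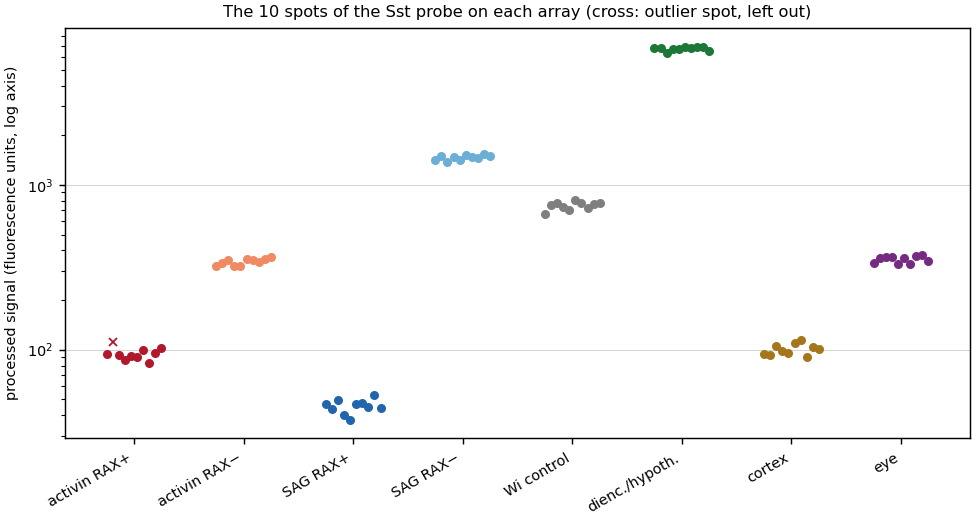
Processed signal (y axis, fluorescence units, log scale) of the repeated spots of the Sst probe on each array (x axis), 1 point for each spot, with a cross for the spot left out as an outlier. The spots of an array lie close together beside the distances between SAG RAX-positive, near 45.1, SAG RAX-negative, near 1472, and diencephalon/hypothalamus, near 6702.

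Ghrh, the growth hormone-releasing hormone precursor, had the same 3 highest arrays as Sst. It read 52.8 on activin RAX-positive, 69.7 on activin RAX-negative, 90.5 on SAG RAX-positive, 455.5 on SAG RAX-negative, 155.7 on the Wi control, 841.7 on diencephalon/hypothalamus, 73.2 on cortex and 72.9 on eye. SAG RAX-negative stood 1.33-fold below diencephalon/hypothalamus, while both activin arrays lay with cortex and eye at the low end.

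Crh, the corticotropin-releasing hormone precursor, was close to background wherever its spot was usable. It read 12.6 on activin RAX-positive, 4.5 on activin RAX-negative, 2.0 on SAG RAX-positive, 14.3 on the Wi control, 2.1 on diencephalon/hypothalamus, 25.1 on cortex and 48.3 on eye, and was well above background on the Wi control, cortex and eye. On SAG RAX-negative the scanner software called its 1 spot non-uniform, and the value was left out there. With that spot kept, a choice made after the data were seen, the scaled log2 level on SAG RAX-negative was -0.43, the highest of the 8 arrays and at least 115-fold above diencephalon/hypothalamus. No second spot exists to decide between the readings.

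Among the peptides of feeding and energy balance, Pomc, the precursor of melanocortins and beta-endorphin, was bright on every array. Its signal was 544.7 on activin RAX-positive, 710.9 on activin RAX-negative, 580.6 on SAG RAX-positive, 717.8 on SAG RAX-negative, 772.4 on the Wi control, 9394 on diencephalon/hypothalamus, 2198 on cortex and 1534 on eye. The 5 cultures lay together, each within 2 scanner errors of its neighbour except activin RAX-positive, 0.46 log2 below activin RAX-negative, and diencephalon/hypothalamus was 4.24-fold above cortex. Markers of the anterior pituitary, whose corticotropes also make Pomc, were bright on the same array: Cga had a scaled log2 level of 0.78, Lhx3 of 2.17 and Pitx1 of 2.89 there, while Tbx19, the corticotrope factor, was at -5.81. Cga, Lhx3 and Pitx1 were not well above background on cortex, the array next in order for Pomc, while eye, below cortex for Pomc, had all 3 well above background, with Pitx1 at 0.87. Gh, Prl and Pou1f1 were not well above background on diencephalon/hypothalamus. Their part in the Pomc signal was not tested.

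Cartpt encodes the satiety peptide CART. Its signal was 382.9 on activin RAX-positive, 268.2 on activin RAX-negative, 48.3 on SAG RAX-positive, 1489 on SAG RAX-negative, 757.9 on the Wi control, 6958 on diencephalon/hypothalamus, 38.4 on cortex and 17.1 on eye. Diencephalon/hypothalamus was 180-fold above cortex and 346-fold above eye, and of the other genes only Trh against cortex, at least 197-fold, differed as much. Within the cultures, SAG RAX-positive was the lowest array and SAG RAX-negative the highest.

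Npy, neuropeptide Y, a peptide that drives feeding, read 43.4 on activin RAX-positive, 34.8 on activin RAX-negative, 16.3 on SAG RAX-positive, 591.1 on SAG RAX-negative, 286.8 on the Wi control, 167.7 on diencephalon/hypothalamus, 62.6 on cortex and 46.2 on eye. Its 3 highest arrays were SAG RAX-negative, the Wi control and diencephalon/hypothalamus, and the other 5 arrays were neighbours within 2 scanner errors.

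Gal encodes galanin, which is made in many hypothalamic neurons and elsewhere in the body. Its signal was 7570 on activin RAX-positive, 9309 on activin RAX-negative, 512.3 on SAG RAX-positive, 764.6 on SAG RAX-negative, 1447 on the Wi control, 1224 on diencephalon/hypothalamus, 888.1 on cortex and 3523 on eye. Both activin arrays were the highest, 0.37 log2 apart, and eye came next. Diencephalon/hypothalamus, both SAG arrays and cortex followed at the low end, each within 2 scanner errors of its neighbour.

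The magnocellular peptides of the posterior pituitary were dim. Avp, vasopressin, read 26.1 on activin RAX-positive, 4.9 on activin RAX-negative, 10.8 on SAG RAX-positive, 21.3 on SAG RAX-negative, 4.3 on the Wi control, 13.5 on diencephalon/hypothalamus, 5.0 on cortex and 16.0 on eye. All neighbours in its order were within 2 scanner errors, and its brightest array is the one where 44.2% of olfactory and vomeronasal receptor genes also passed. Oxt, oxytocin, read 57.8 on activin RAX-positive, 33.9 on activin RAX-negative, 25.2 on SAG RAX-positive, 187.7 on SAG RAX-negative, 27.8 on the Wi control, 54.4 on diencephalon/hypothalamus, 58.7 on cortex and 44.3 on eye. One array, SAG RAX-negative, stood 3.47-fold above the next, and the diencephalon/hypothalamus array did not stand above cortex or eye.

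The tissue arrays show which of the genes were brighter in diencephalon/hypothalamus than in other head tissue at E12.5. Between diencephalon/hypothalamus and cortex, 6 genes were higher (Trh, Sst, Pomc, Npy, Ghrh and Cartpt) and Crh was lower, where 10.3% of all genes tested were higher and 9.05% lower. The log2 differences were at least 7.62 for Trh, 7.49 for Cartpt, 6.05 for Sst, 3.51 for Ghrh, 2.08 for Pomc and 1.41 for Npy, and Crh was at -1.70 or lower. Npy fell short of the limit with normexp background (0.73) and in the authors' values (0.69). Against eye the same 6 genes were higher (8.12% of all genes), from 1.63 for Npy (0.86 with normexp background) to 8.43 for Cartpt, and Gal (-1.76) and Crh (-2.87 or lower) were lower (11.2%). Between diencephalon/hypothalamus and cortex, the differences were 0.45 for Gal and -0.12 for Oxt, and Avp had no measurable fold. The 2 comparisons share the diencephalon/hypothalamus array. Among all genes called, 53.2% were higher on diencephalon/hypothalamus than on cortex, but 28.5% with median scaling. Of 17 transcription factors of peptide neuron lineages, 15 were higher and 0 lower on diencephalon/hypothalamus than on cortex, with a median log2 difference of 4.26 against -0.07 for all genes, led by Nkx2-1 (8.94), Foxb1 (at least 8.50), Isl1 (8.47) and Hmx3 (at least 8.24).

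The gate comparison asks which genes followed Rax. After activin, RAX-positive cells were lower than RAX-negative cells for Trh and Sst and higher for 0 of the 9 genes tested, where 6.1% of all genes were lower and 10.7% higher. Trh differed by -6.15 ± 0.20 (71.1-fold lower, scanner error) and Sst by -1.95 ± 0.21. After SAG, RAX-positive cells were lower for 6 of 8 genes tested and higher for 0, where 10.5% of all genes were lower and 4.27% higher. The log2 differences after SAG were -4.68 for Trh, -4.65 for Npy, -4.50 for Sst, -4.42 for Cartpt, -2.37 for Oxt and -1.80 for Ghrh. Among all genes called, 63.8% were higher on activin RAX-positive than on activin RAX-negative (31.3% with median scaling), and 29.0% on SAG RAX-positive than on SAG RAX-negative (40.6%). Gal and Pomc were called in neither gate comparison, at -0.37 and -0.46 after activin and -0.05 and 0.22 after SAG.

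Other gene groups differed across the SAG gate too. Of 10 neuron markers, 4 were lower and 0 higher on SAG RAX-positive than on SAG RAX-negative, Gap43 (-3.00), Dcx (-2.43), Stmn2 (-2.03) and Elavl3 (-1.18). The summed scaled signal of the list was 100.8 on SAG RAX-positive and 211.2 on SAG RAX-negative, with 10 of 10 well above background on both. Of 13 genes for peptide processing and dense-core granules, 7 were lower and 1 higher on SAG RAX-positive, with Scg2, a granule protein, at -2.33 and Pcsk2, a prohormone convertase, at -2.23. Their median was -1.10 against 0.03 for all genes. Of 20 other hypothalamic neuropeptide genes, 8 of 15 tested were lower and 0 higher, led by Penk (-4.09), Nts (-3.84), Tac1 (-3.65 or lower) and Pmch (-2.99). Of 10 neural crest and mesenchyme markers, 8 of 9 tested were lower and 0 higher, led by Foxf2 (-6.86 or lower) and Col3a1 (-6.73), with summed signals of 0.877 on SAG RAX-positive and 12.9 on SAG RAX-negative. The part of other shares of neurons or of mesenchyme in the peptide differences was not tested. After activin, 1 of the 10 neuron markers was lower on RAX-positive cells, Stmn2 (-2.43), and 1 higher, Map2 (1.19). Of the pluripotent cell and epiblast markers 10 of 12 were lower there, and of the neural crest and mesenchyme markers 6 of 10, with 0 higher in either list, and 2 of 13 processing genes were lower, Pcsk2 (-2.12) and Pcsk1 (-1.36).

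**Figure D3:**
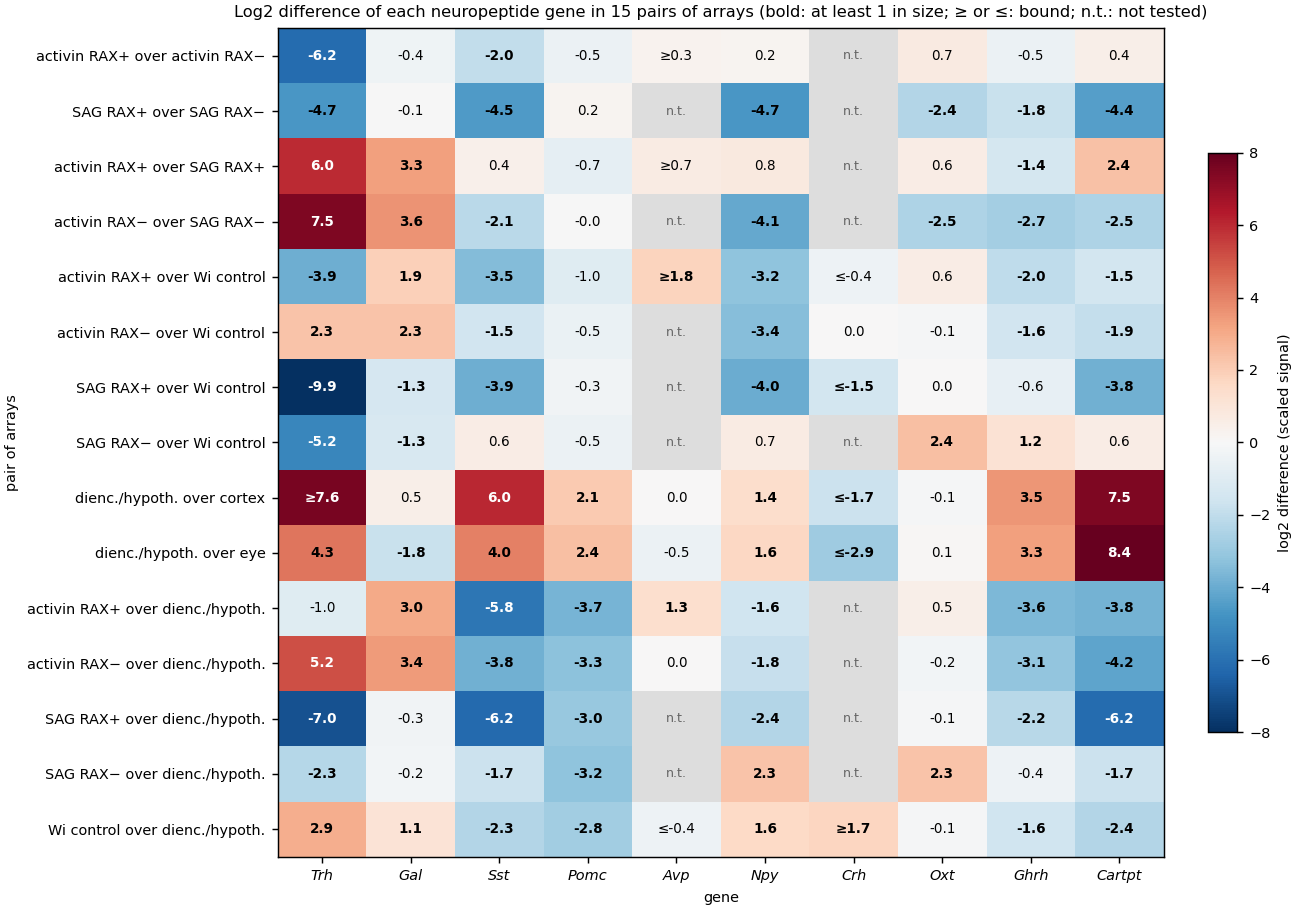
Log2 difference of scaled signal (colour and printed value) of each gene (x axis) in the 15 pairs of arrays (y axis), with values of at least 1 in size in bold and bounds marked. Grey cells were not tested, among them Crh in every pair with SAG RAX-negative, where it had no value. Trh spans 7.5 for activin RAX-negative over SAG RAX-negative to -9.9 for SAG RAX-positive over the Wi control. The rows that name SAG RAX-positive first hold no bold positive value.

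Setting activin against SAG within a gate shows Trh and Gal on the activin side. In RAX-positive cells, activin was higher for Trh, Gal and Cartpt and lower for Ghrh (18.8% of all genes higher, 6.19% lower). Trh differed by 5.99 (63.7-fold), Gal by 3.26 (9.61-fold), Cartpt by 2.37 and Ghrh by -1.40, which was -0.93 with normexp background. In RAX-negative cells, activin was higher for Trh by 7.47 (177-fold) and Gal by 3.59 (12.0-fold), and lower for Sst, Npy, Oxt, Ghrh and Cartpt (13.1% of all genes higher, 14.7% lower). Among all genes called, 75.2% were higher with activin in RAX-positive cells (52.8% with quantile scaling) and 47.1% in RAX-negative cells (70.6% with median scaling). The 5 lower peptide genes ranged from -2.13 for Sst to -4.11 for Npy. Of 10 neuron markers, 9 were lower and 0 higher in activin RAX-negative cells, led by Rbfox3 (-4.07) and Dcx (-4.06), with sums of 67.0 and, on SAG RAX-negative, 211.2. Of 12 pluripotent cell and epiblast markers, 10 were higher and 0 lower, and the part of these in the peptide differences was not tested. Of the 17 lineage factors, 15 were lower and 0 higher in activin RAX-negative than in SAG RAX-negative cells, with Neurog3 at -6.36, Hmx3 at -6.16 and Nkx2-1 at -4.93. Of the 13 processing genes, 7 were lower there and 0 higher. Among the other peptides Nts (-3.79), Cck (-3.28) and Pmch (-2.28) were lower, while Penk, the enkephalin precursor, was higher by 3.07.

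The 4 comparisons with the Wi control share its array. Among all genes called, 69.4% were higher on activin RAX-positive than on the Wi control (48.0% with quantile scaling) and 55.0% on SAG RAX-negative (44.8% with median scaling). Activin RAX-positive cells were higher than the Wi control for Gal (1.92) and Avp (at least 1.76) and lower for 5 genes (30.2% of all genes higher, 13.3% lower), with Trh at -3.89 and Sst at -3.48. The Avp call was lost with quantile scaling (0.38), normexp background and the authors' values (0.30). Activin RAX-negative cells were higher for Gal (2.29) and Trh (2.26) and lower for Sst, Npy, Ghrh and Cartpt, from -1.53 to -3.44 (19.0% higher, 16.9% lower). SAG RAX-positive cells were higher for 0 genes and lower for 6 (21.0% higher, 19.2% lower), with Trh at -9.88, which is 944-fold. SAG RAX-negative cells were higher for Oxt (2.38) and Ghrh (1.18) and lower for Trh (-5.21) and Gal (-1.29), where 17.4% of all genes were higher and 14.2% lower. Ghrh was at 0.85 with normexp background and 0.83 in the authors' values. Sst, Cartpt and Npy differed by 0.60 to 0.67 between SAG RAX-negative cells and the Wi control.

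Sst, Npy and Cartpt were thus called in neither direction between those arrays, while many lineage factors were called. Of the 17 factors, 13 were higher and 0 lower on SAG RAX-negative than on the Wi control, with Nkx2-1 at least 11.40 and Hmx3 7.97 higher. None of the 13 processing genes was called, in either direction, between SAG RAX-negative and the Wi control. The neuron sums were 211.2 on SAG RAX-negative and 249.97 on the Wi control, and the summed signal of 8 cortex markers was 15.2 on SAG RAX-negative, 113 on the Wi control and 164 on cortex. Cortex itself held Sst at 100.4 and Npy at 62.6.

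Each culture was last set against diencephalon/hypothalamus, and these 5 comparisons share that array. Among all genes called against the tissue, 74.5% were higher on activin RAX-positive (49.4% with quantile scaling), 59.7% on SAG RAX-positive (46.2%) and 65.4% on SAG RAX-negative (53.2%). SAG RAX-negative cells were higher for Npy (2.29) and Oxt (2.26) and lower for Pomc (-3.24), Trh (-2.29), Cartpt (-1.75) and Sst (-1.71), with 13.4% of all genes higher and 7.1% lower. Ghrh (-0.41) and Gal (-0.20) were within 2-fold of the tissue. SAG RAX-positive cells were higher for 0 genes and lower for 6 (18.9% higher, 12.7% lower), from -2.22 for Ghrh to -6.97 for Trh.

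Activin RAX-positive cells were higher than diencephalon/hypothalamus for Gal (3.01) and Avp (1.33, but -0.10 with quantile scaling) and lower for Sst, Cartpt, Pomc, Ghrh and Npy (29.4% of all genes higher, 10.0% lower). Trh, at -0.97, lay just short of the 2-fold limit. Activin RAX-negative cells were higher for Trh (5.18) and Gal (3.38) and lower for the same 5 genes (20.0% higher, 14.6% lower), from -1.81 for Npy to -4.24 for Cartpt. The Wi control was higher for Trh (2.91), Crh (at least 1.73), Npy (1.62) and Gal (1.09) and lower for Pomc, Cartpt, Sst and Ghrh, from -1.59 to -2.76 (22.0% higher, 15.2% lower).

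Of the 17 lineage factors, 1 was higher and 2 were lower on SAG RAX-negative than on diencephalon/hypothalamus, against 0 higher and 14 lower on the Wi control. None of the 13 processing genes was called between SAG RAX-negative and diencephalon/hypothalamus. Of the 20 other neuropeptide genes, 11 of 17 tested were lower and 1 higher on SAG RAX-negative, with Adcyap1 at -4.67, Tac1 at -4.05 and Pmch, the melanin-concentrating hormone precursor, at -4.03.

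**Figure D4:**
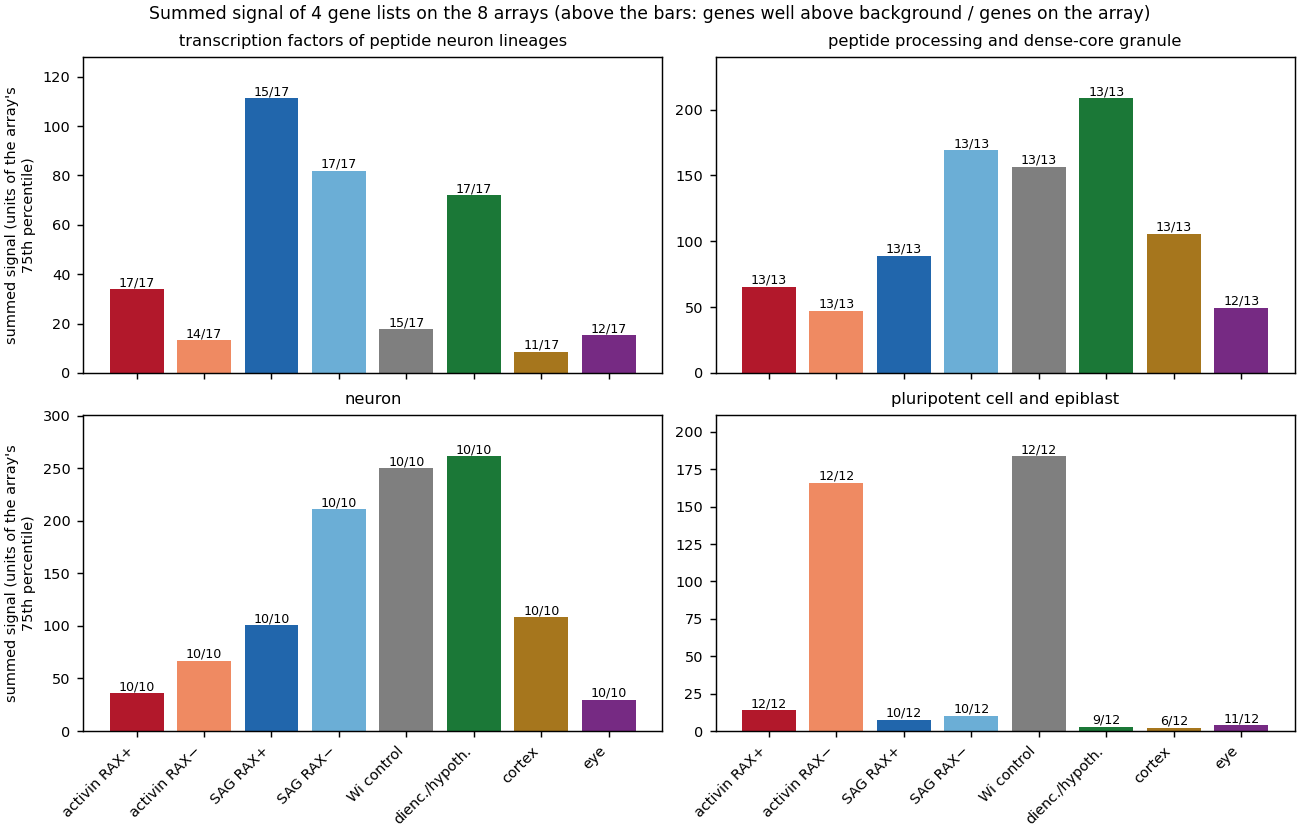
Summed scaled signal (y axis, units of the array's 75th percentile) of 4 gene lists on the 8 arrays (x axis), 1 bar for each array, with the number of genes well above background over the number on the array printed on each bar. The lineage factors are highest on SAG RAX-positive, SAG RAX-negative and diencephalon/hypothalamus, the processing genes and neuron markers on diencephalon/hypothalamus, SAG RAX-negative and the Wi control, and the pluripotent cell and epiblast markers on activin RAX-negative and the Wi control.

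The genes whose profiles over the 8 arrays lay nearest to each peptide gene were sought among 16765 protein-coding genes, by the root mean square difference of mean-centred scaled log2 levels. For Trh, whose own standard deviation over the arrays was 4.21, the nearest were Fgf5 (1.98), Cfc1 (2.10) and Cnn1 (2.13). For Sst they were Asic4 (0.76), Zcchc12 (0.78) and Nrsn1 (0.89), for Cartpt Olig1 (0.88), Olig2 (0.89) and Resp18 (0.91), and for Npy Arhgef4 (0.67), 4930444P10Rik (0.72) and Nts (0.74). Ghrh lay nearest to Srrm3 (0.41), Gal to Arhgap45 (0.36) and Pomc to Slc22a6 (0.46). Oxt lay nearest to Ctrl (0.26), Krtap26-1 (0.29) and Il12rb2 (0.29), which were also brightest on SAG RAX-negative. For Avp the nearest were Cxcr2 (0.25), Olfr170 (0.26) and Krtap19-2 (0.28). Crh, with no value on SAG RAX-negative, was left out. The profiles share arrays, depth and scaling. Among the peptide genes themselves, Avp and Crh were left out, since they were near background on most arrays. Npy and Ghrh (1.11) were nearest, and Sst, Pomc and Oxt followed, each at 1.22 from Ghrh. With Avp kept, the nearest pair was Avp and Oxt (0.86), both dim. The measure favours genes with a narrow range.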

How the data were processed

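Cy3 label was made from 50 ng of RNA for 8 Agilent arrays, per the labels' protocols. The deposited scanner files hold the intensity of every spot after the authors' background subtraction and spatial detrending in Feature Extraction 10.7.3.1, per the file headers. The submitters' processing notes give 9.1 instead, and limma with no version. The authors' table of log2 values, normalized between arrays, covers 55682 probes, and its background step is not given in the sources used here. Non-control processed intensities were divided by the array's 75th percentile and taken to log2, outlier spots were left out and repeated spots averaged. Of the probes, 28026 were named through RefSeq accession and 27655 by the file's name. Where a gene had several probes the one brightest on average stood for it, and the 10 genes of interest have 1 probe each. Pairs of arrays were compared by the rule of size in the report, with no test, since each group had 1 array; their number limits the precision. Tools were R 4.3.3 with limma 3.58.1, numpy 2.4.6 and pandas 2.3.3; the comparison was tested on simulated data. Named genes were all members, the 3 genes most alike to a member, and up to 4 called genes with the largest differences from each list in a comparison. The members and lists were chosen with earlier results of these data known. Alternatives were median and quantile scaling, normexp background, the authors' values, the mean of a gene's probes, other detection calls and, added later, outlier spots kept. A further marker of the pituitary list, and the list's sum, are not reported here.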

Additional observations from a re-analysis of the deposited data

Results flagged for a closer look

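Cartpt differed between activin and SAG in opposite directions in the 2 gates. In RAX-positive cells it was higher after activin (2.37 on the log2 scale), and in RAX-negative cells it was lower after activin (-2.49). The difference between these 2 effects was not tested, with 1 array for each group. The 4 signals were 382.9 on activin RAX-positive, 48.3 on SAG RAX-positive, 268.2 on activin RAX-negative and 1489 on SAG RAX-negative.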

How the results depend on the processing

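The number of peptide genes called in a comparison, or detected on an array, stayed within 1.5 times its value under every alternative run. Of 91 called differences, median scaling lost 0 and added 2, quantile scaling lost 2 and added 3, normexp background lost 11 and added 1, and the authors' values lost 5 and added 2. The mean of probes could change none, since each peptide gene has 1 probe. Beyond the scanner error, 46 of 134 differences moved with median scaling, 32 of 133 with quantile scaling, 66 of 130 with normexp and 59 of 133 in the authors' values. The median over all genes shifted most for activin RAX-positive over diencephalon/hypothalamus, at 0.52 as reported and 0.12 with quantile scaling. The one reversal was Avp, activin RAX-positive over diencephalon/hypothalamus, at -0.10 with quantile scaling, against 1.33 as reported. Avp on activin RAX-positive over the Wi control also lost its call under quantile scaling, normexp and the authors' values. Npy lost its call for diencephalon/hypothalamus over cortex under normexp (0.73) and the authors' values (0.69), and over eye under normexp (0.86). Trh for activin RAX-positive over diencephalon/hypothalamus gained a call under median scaling (-1.26), quantile scaling (-1.14) and the authors' values (-1.12). The causes were not tested. The slide as a block was not run, since the Wi control is alone on its slide and 1 array a group leaves no fit. No paired analysis was possible because each group has 1 array. Signals near background limit Avp, Crh and Oxt.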

Other observations

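Receptors of the peptides followed other arrays than the peptides in part. Trhr, a receptor of thyrotropin-releasing hormone, had a scaled log2 level of -1.65 on the Wi control and -2.78 on cortex. It was not well above background on activin RAX-negative, the brightest array for Trh. Trhr2, another receptor of this hormone, was well above background there, at -3.26, and was at -5.06 on the Wi control. On the tissue arrays Trhr2 was not well above background. Galr2, a galanin receptor, was brightest on activin RAX-negative (-1.52), 3.77 above SAG RAX-negative on the log2 scale and 4.79 above diencephalon/hypothalamus. Sstr1, a somatostatin receptor, was at -0.89 on diencephalon/hypothalamus and -1.04 on cortex, and was not well above background on either activin array. Mc4r, a receptor of melanocortin peptides, was at -2.18 on SAG RAX-negative, -3.06 on diencephalon/hypothalamus, -5.34 on cortex and -2.67 on eye. Of 23 receptor genes, 21 were tested between the Wi control and diencephalon/hypothalamus, with 11 higher and 6 lower, led by Avpr1b (4.82), a vasopressin receptor.

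With its non-uniform spot kept, Crh on SAG RAX-negative was called against 4 other arrays, at least 95.3-fold above SAG RAX-positive, at least 31.2-fold above activin RAX-negative and 34.5-fold above the Wi control, besides the tissue comparison given earlier.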
